A study of Homo sapiens with 34 samples.

Results

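The comparison concerns LNCaP cells of the androgen-independent type (AI) that received a small interfering RNA (siRNA) against EZH2, set against the same cells that received a mock siRNA. It rests on 4 RNA-seq libraries, 2 per group, of 34 samples in the series and 12 RNA-seq libraries in all, chosen by the sample titles. LNCaP is an established human prostate cancer line that grows in response to androgen, and the AI cells were kept in RPMI1640 medium whose serum had been stripped of steroids with charcoal. The siRNAs (siEZH2 and NC, the mock) were delivered with a lipid reagent, and transfection lasted 24 h. No genotype change is named for any group. The series also holds AI cells without siRNA and androgen-dependent LNCaP cells (AD) in standard medium, untreated or with the same siRNAs, again with 2 libraries each. Transfection is described in the protocols for LNCaP/abl alone, a line that grows without androgen, so the AD values hold only if the AD titles are right. Whether the 2 libraries of a group came from separate cultures is not stated, and the spread behind the p-values may therefore be technical.

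EZH2 is the catalytic subunit of Polycomb repressive complex 2 (PRC2), which methylates lysine 27 of histone H3 and leaves the mark H3K27me3 on silenced developmental genes. SUZ12 and EED are needed for the complex to be active, RBBP4 and RBBP7 bind histones, and EZH1 is a second, weaker methyltransferase that can take the place of EZH2. Accessory subunits such as MTF2, PHF19, PHF1, JARID2 and AEBP2 guide the complex to chromatin. EZH2 is abundant in dividing cells and in advanced prostate cancer, where some genes have been reported to need it for their expression.

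Levels are in RPKM, reads scaled by the length of the gene and the depth of the library. The estimated depth, in M reads, was 8.90 and 12.71 for the mock libraries and 7.75 and 7.53 for the siEZH2 libraries. Across genes, the Pearson correlation of log2(RPKM + 0.5) was 0.9895 between the mock libraries, 0.9858 between the siEZH2 libraries, and 0.9806 to 0.9814 between a mock and a siEZH2 library. For genes of 20 RPKM or more the median absolute log2 difference was 0.068 and 0.085 within the groups and 0.167 to 0.202 between them. The mitochondrially encoded share was 3.81% to 4.07% in the 4 libraries, against 19.61% and 33.45% in untreated AI cells.

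EZH2 itself, the target of the siRNA on chromosome 7, was measured at 7.07 and 5.44 RPKM after mock siRNA and at 3.60 and 4.33 RPKM after siEZH2. Both siEZH2 libraries lay below both mock libraries, as for 36.0% of all genes tested, and their mean was 63.4% of the mock mean. Ranked by the limma p-value, EZH2 was number 1023 of the 11460 genes tested. The log2 change was -0.59 (SE 0.18, n = 2 against 2), with a 95% interval from -1.0 to -0.18. It did not pass the threshold of 0.05 in limma fitted across all genes and 12 libraries (adjusted p = 0.104), while the fit of the 8 transfected libraries gave an adjusted p of 0.0282 for the same change. An exact two-sided permutation test over the 4 libraries gave p = 0.333, the smallest value that 2 against 2 allows. Untreated AI cells had 10.11 and 12.62 RPKM, above the mock as well as the siEZH2 libraries. In AD cells EZH2 stood at 10.95 and 12.48 RPKM after mock siRNA and 11.52 and 10.73 RPKM after siEZH2, ranges that overlapped.

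The other PRC2 core genes had lower means after siEZH2, and 0 of the 6 core genes passed the test. SUZ12 had 3.63 and 3.31 RPKM after mock siRNA and 2.46 and 2.27 RPKM after siEZH2 (log2 change -0.47, SE 0.17, limma adjusted p = 0.151). RBBP4 had 10.28 and 10.42 RPKM against 7.11 and 8.47 RPKM, and RBBP7 had 32.27 and 30.52 RPKM against 25.50 and 28.28 RPKM, also without overlap between the groups. EED (2.92 and 2.01 against 2.33 and 1.72 RPKM) and EZH1 (6.64 and 5.94 against 6.38 and 5.37 RPKM) overlapped. The median change of the 6 core genes was -0.31, against -0.06 for all genes tested, and EZH1 alone turned to a value above 0 (0.01) when libraries were scaled by median ratio. Among 7 accessory genes 1 passed the test: MTF2, a Polycomb-like protein that binds unmethylated CpG DNA, fell from 3.95 and 4.23 RPKM to 2.11 and 1.83 RPKM (log2 change -0.90, SE 0.16, limma adjusted p = 0.031). EPOP, PHF19 and PHF1 were higher without overlap (log2 changes 0.44, 0.28 and 0.20, none past the test), and AEBP2, LCOR and JARID2 overlapped. Over all genes tested, 36.0% were lower and 24.4% higher without overlap, and 2.62% passed the test.

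**Figure D1:**
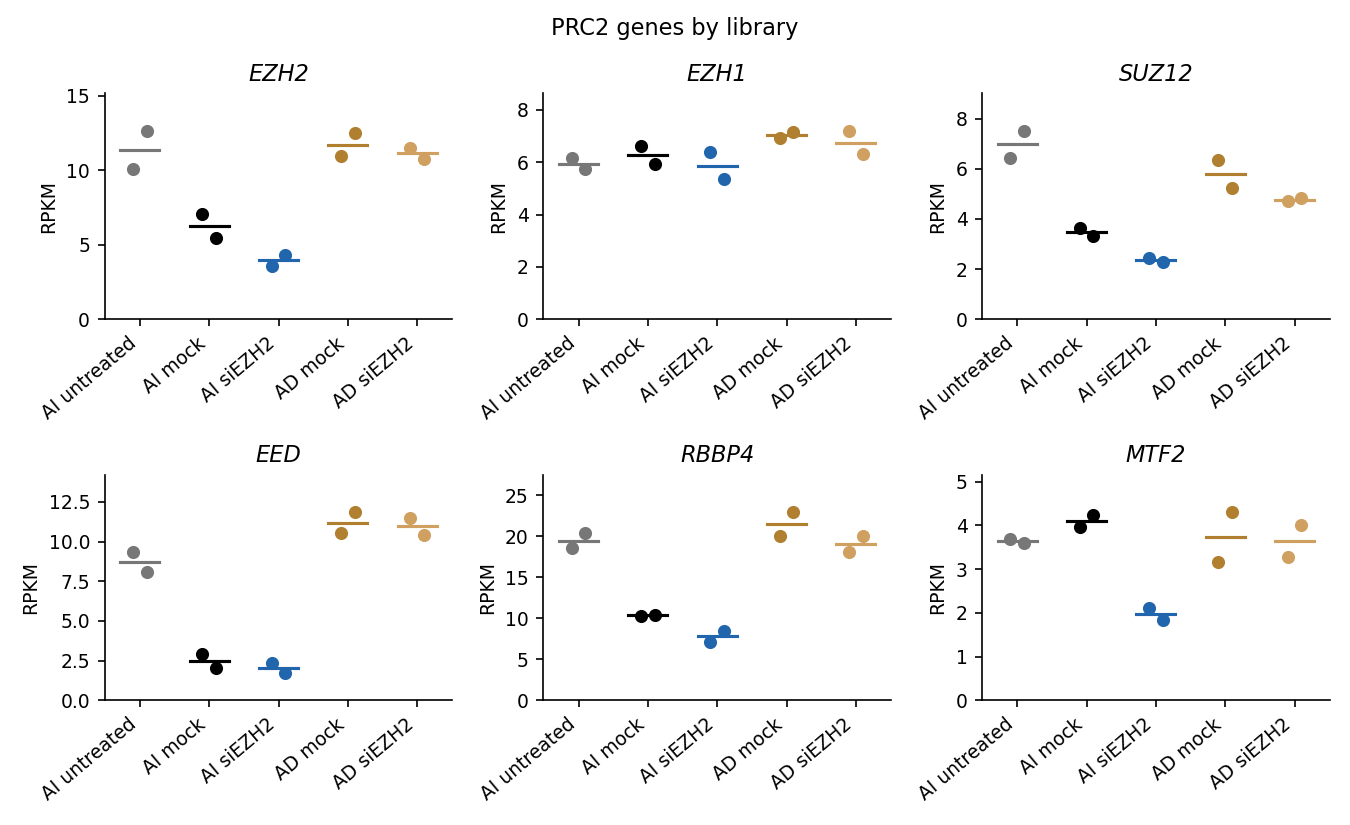
RPKM of 6 PRC2 genes in each library (points) with the group mean (bar), for AI untreated, AI mock, AI siEZH2, AD mock and AD siEZH2 cells, 2 libraries each. EZH2 in the AI siEZH2 libraries (3.60 and 4.33 RPKM) lies below the AI mock libraries (7.07 and 5.44 RPKM), which lie below the untreated ones, and MTF2 is lower in the AI siEZH2 libraries than in any other shown.

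Across all genes the changes were mostly falls. Of 28071 genes listed, 11460 had 0.5 RPKM or more in at least 2 of the 4 libraries and were tested, and 300 of them (2.62%) passed an adjusted p of 0.05 in limma. Of these, 289 (2.52%) fell and 11 (0.096%) rose. After adding 0.5 RPKM and taking log2, the falls had a median of -0.75 and the smallest was -0.43. The lowest value, -3.27, belongs to MIR4787 and rests on a few reads, so it is not a reliable fold. Protein-coding genes made up 274 of the falls. The added 0.5 RPKM makes the change of genes at low levels look smaller. Groups did not overlap for 4124 genes lower after siEZH2 (36.0%) and 2798 higher (24.4%). At an unadjusted p under 0.05 stood 2514 genes (21.9%), 1925 lower and 589 higher. The calls rest on the scaling and on the libraries in the fit. The fit of the 8 transfected libraries gave 557 rises and 1393 falls, and that of the 4 AI libraries 269 rises and 935 falls. Counts of calls in the gene lists below also move with these choices. Median-ratio scaling, which moved the median change of all genes from -0.06 to 0.05, left 3 rises and 18 falls, and quantile normalization gave 20 rises and 47 falls. Without any 1 of the 4 libraries no gene passed.

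**Figure D2:**
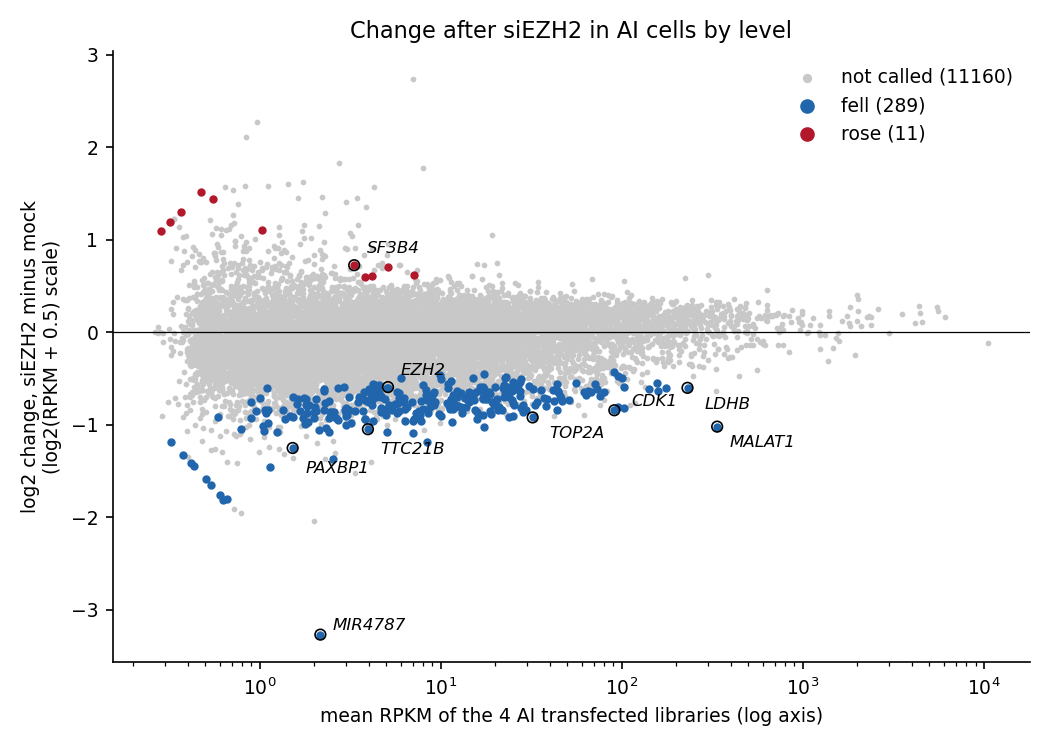
Log2 change after siEZH2 in AI cells (siEZH2 minus mock, log2(RPKM + 0.5) scale) against the mean RPKM of the 4 libraries (log axis), 1 point per tested gene, with called falls in blue, called rises in red and some genes ringed and named. The 289 falls span the range of levels up to MALAT1, and the 11 rises lie below 10 RPKM.

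The largest falls among genes of 1 RPKM or more came from genes of varied roles. MAD2L1, a spindle checkpoint protein, fell from 6.51 and 7.49 RPKM to 2.74 and 3.37 RPKM (log2 change -1.08, SE 0.17, limma adjusted p = 0.0287). EXO1, an exonuclease of mismatch repair and recombination, fell from 3.02 and 3.04 RPKM to 1.11 and 1.30 RPKM (log2 change -1.05). USP16, which removes ubiquitin from histone H2A and so acts opposite to Polycomb repressive complex 1 (PRC1), fell from 8.78 and 10.81 RPKM to 3.77 and 4.90 RPKM (log2 change -1.09). The rule that chose these genes required both siEZH2 libraries to lie below both mock libraries, as they did for 36.0% of all genes tested.

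TMEM126B, an assembly factor of respiratory complex I, fell from 11.34 and 12.29 RPKM to 4.95 and 4.84 RPKM, and GPD2, the mitochondrial glycerol-3-phosphate dehydrogenase, from 3.85 and 3.01 RPKM to 1.70 and 1.05 RPKM. TTC21B, a subunit of the intraflagellar transport machinery of cilia, fell from 5.42 and 5.60 RPKM to 2.50 and 2.32 RPKM (log2 change -1.05, SE 0.13, limma adjusted p = 0.0194). PAXBP1, a binding partner of PAX proteins, fell from 2.19 and 2.50 RPKM to 0.67 and 0.72 RPKM. SLC44A3 and KLHL1 were lower still in level and fell by 1.06 and 1.08 on the log2 scale.

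Some of the largest falls are uncertain. The table lists MIR4787, a microRNA gene of 84 bases, at 3.99 and 4.66 RPKM after mock siRNA, which corresponds to about 3 and 5 reads, and at 0 after siEZH2. At the estimated depths a count of 0 there allows up to 4.61 and 4.74 RPKM (3 reads). These depths are approximate, and depths near 2 times as high, which scored almost as well, would lower the limits. No fold is given. PI4K2B, a phosphatidylinositol 4-kinase, is listed under 2 identifiers, of which 1 fell (1.93 and 1.86 RPKM to 0.28 and 0.48 RPKM) and the other did not pass (1.17 and 1.26 against 0.76 and 0.60 RPKM). Reads could be split between these entries. FAM27C, a noncoding gene with near copies on chromosome 9, fell from 4.89 and 2.92 RPKM to 1.25 and 1.08 RPKM with the same reservation. In all, 10 of the 289 falls were listed at 0 in both siEZH2 libraries.

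Of the 2768 genes tested at 20 RPKM or more, 74 fell and 0 rose. The balance over all genes at these levels was the other way: from 20 to 100 RPKM, 39.99% were higher and 32.63% lower without overlap (median 0.04), and above that 55.94% were higher and 22.17% lower (median 0.10). MALAT1, an abundant nuclear noncoding RNA, fell from 477.8 and 423.7 RPKM to 237.5 and 207.2 RPKM (log2 change -1.02, SE 0.16, limma adjusted p = 0.028). TWF1, an actin-binding protein, fell from 27.12 and 35.21 RPKM to 15.53 and 16.89 RPKM. CTNNAL1, a relative of alpha-catenin, fell from 34.03 and 31.83 RPKM to 16.60 and 18.10 RPKM. COPB1, a coat subunit of vesicles between Golgi and endoplasmic reticulum, fell from 37.61 and 36.43 RPKM to 20.49 and 19.81 RPKM. In each of these genes the replicates of a group lay closer together than the groups did, but they were chosen as called genes with large falls.

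The 11 rises were small or came from low, uncertain genes. Protein-coding genes made up 4 of them. SF3B4, a subunit of the U2 spliceosome particle, rose from 2.46 and 2.29 RPKM to 4.74 and 3.81 RPKM (log2 change 0.73, SE 0.13, limma adjusted p = 0.0312). SOD3, the secreted superoxide dismutase, rose from 3.44 and 4.10 RPKM to 6.89 and 5.99 RPKM (log2 change 0.70). GRB7, an adaptor of receptor tyrosine kinases, rose from 5.09 and 5.88 RPKM to 8.68 and 8.67 RPKM, and the zinc finger gene ZNF865 from 3.46 and 2.93 RPKM to 5.41 and 4.86 RPKM. The other 7 were pseudogenes, antisense genes and a noncoding RNA. They include INAFM2, typed as antisense (3.01 and 2.90 against 4.75 and 4.68 RPKM), and a processed pseudogene on chromosome 2, AC005034.2 (0.46 and 0.48 against 1.84 and 1.35 RPKM), and 4 of them were listed at 0 in both mock libraries. Larger differences that did not pass came from RPL27P5, a ribosomal protein pseudogene (5.01 and 0.0 against 16.44 and 6.79 RPKM), and the histone gene H3C6 (0.81 and 0.19 against 2.50 and 2.26 RPKM). HLA-U and BECN1P2, both pseudogenes, and the antisense gene H2AZ2-DT also missed the threshold, at log2 differences of 1.45, 1.57 and 1.46.

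H3K27me3 was mapped by chromatin immunoprecipitation in 2 samples of AI cells that were not transfected. The marks describe untransfected cells, whose RNA differed from the mock libraries, for EZH2 among other genes. Marks after mock siRNA or siEZH2 were not measured. A transcription start was found for 8652 of the 11460 tested genes. Of these, 71 had an H3K27me3 peak within 1 kb of the start in both AI samples, 329 in 1 sample and 8252 in neither. Genes below the level filter are outside these classes, so marked genes that are silent are not described. In the class with peaks in both samples 0 genes rose and 3 fell, and the median change was -0.12. The median was 0.04 with a peak in 1 sample (0 rose, 3 fell) and -0.07 with none (5 rose, 233 fell). The middle 50% of the 71 genes lay between -0.29 and 0.12, inside the spread of genes without a peak (-0.33 to 0.14). Marked genes were also expressed at a lower level, with a median of 2.58 RPKM against 6.31 RPKM without a peak, and the part of level in this was not tested.

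The 3 called genes with an H3K27me3 peak within 1 kb of the start in both AI samples all fell. LDHB, the lactate dehydrogenase subunit that favours pyruvate formation, fell from 269.3 and 287.1 RPKM to 182.4 and 184.3 RPKM (log2 change -0.60, SE 0.11, limma adjusted p = 0.0335). ABCD3, a fatty acid transporter of peroxisomes, fell from 3.23 and 3.71 RPKM to 1.68 and 1.70 RPKM (log2 change -0.86). FAM133B fell from 5.27 and 4.50 RPKM to 2.47 and 3.05 RPKM (log2 change -0.73). The siEZH2 libraries lay below the mock libraries in all 3, which were chosen because they passed the test. Their upstream sequences are shown because CpG-rich promoters are the usual sites of PRC2. Each is the 250 bases before the RefSeq gene start (GRCh38.p14), 5′ to 3′ on the strand of the gene, with CpG dinucleotides in capitals.
LDHB, chr12:21657843-21658092, minus strand: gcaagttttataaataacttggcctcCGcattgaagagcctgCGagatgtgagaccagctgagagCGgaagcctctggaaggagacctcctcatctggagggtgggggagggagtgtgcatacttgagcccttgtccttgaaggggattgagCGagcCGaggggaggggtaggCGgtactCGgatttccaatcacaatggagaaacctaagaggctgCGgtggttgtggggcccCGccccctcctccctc
ABCD3, chr1:94418139-94418388, plus strand: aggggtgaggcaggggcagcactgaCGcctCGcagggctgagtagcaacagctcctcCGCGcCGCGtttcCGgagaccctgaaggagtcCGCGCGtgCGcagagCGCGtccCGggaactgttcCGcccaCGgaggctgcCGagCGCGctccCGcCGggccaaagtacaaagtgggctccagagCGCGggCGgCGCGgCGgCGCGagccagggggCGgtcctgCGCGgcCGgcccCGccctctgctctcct
FAM133B, chr7:92590391-92590640, minus strand: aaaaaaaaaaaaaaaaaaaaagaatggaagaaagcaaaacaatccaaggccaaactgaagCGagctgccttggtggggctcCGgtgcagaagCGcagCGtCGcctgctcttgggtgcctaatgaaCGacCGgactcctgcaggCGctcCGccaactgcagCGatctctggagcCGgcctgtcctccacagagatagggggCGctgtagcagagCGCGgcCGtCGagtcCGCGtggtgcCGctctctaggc
The LDHB sequence holds 9 CpG, FAM133B 19 and ABCD3 34, where the median of 27305 promoters is 11 and 93.39% hold fewer than ABCD3. At LDHB the peaks of both samples covered the start (chr12:21656334-21661963 in replicate 1 and chr12:21652636-21662365 in replicate 2). At ABCD3 they began 754 and 569 bases downstream of the start, and at FAM133B 74 and 157 bases upstream. The peak scores, which are the authors' own values, were 130.39 and 195.1 at LDHB, 221.54 and 231.37 at ABCD3, and 780.52 and 150.39 at FAM133B.

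Of the genes known as Polycomb targets in other systems none passed the test, and more of them were higher than lower. Of 19 genes reported elsewhere as silenced by EZH2, 10 were tested and 0 passed, with a median change of 0.11, and 5 were higher without overlap (24.4% of all genes) and 1 lower (36.0% of all genes). The cell cycle inhibitor CDKN1A had 173.9 and 173.1 RPKM after mock siRNA and 219.8 and 217.4 RPKM after siEZH2 (log2 change 0.33, limma adjusted p = 0.13). Of 39 HOX genes 6 were expressed enough to test, 3 were higher without overlap and 0 passed, among them HOXB6 (0.46 and 0.56 against 1.31 and 1.15 RPKM, adjusted p = 0.079) and HOXC13 (0.97 and 1.32 against 2.17 and 1.37 RPKM). Of 46 other developmental regulators 7 were tested, 3 were higher without overlap, 1 was lower and 0 passed, IRX3 and IRX5 having the largest differences (log2 0.37 and 0.47). The medians of the HOX and developmental genes were 0.15 and 0.14, above the median of all genes under the deposited scaling and each alternative scaling. With quantile normalization they were 0.42 and 0.41, and 1 HOX gene passed. With a pseudocount of 0.1 also 1 HOX gene passed. The members left out were below the level filter or were not analysed here. In the opposite direction, the 5 genes reported to need EZH2 in androgen-independent cells had a median of -0.32 and 0 passed, NDC1 and PCLAF being the lowest (log2 -0.41 and -0.38). Genes with an EZH2 peak of the 1 AI sample, also untransfected, within 1 kb numbered 59. Their median was 0.02, against -0.07 for genes without one. The 71 genes with H3K27me3 peaks in both AI samples were not among them, and most had no H3K27me3 peak within 1 kb in either sample. Of the 59, 21 (35.59%) were higher and 10 (16.95%) lower without overlap, against 24.5% and 38.45% without a peak. The 1 called was a fall, FXR1, an RNA-binding protein named here after its values were seen (20.83 and 21.69 against 13.33 and 13.17 RPKM).

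No PRC1 gene passed the test among 20, which included the subunits BMI1 (2.08 and 1.46 against 0.67 and 1.74 RPKM) and PCGF5 (2.63 and 2.37 against 1.20 and 2.35 RPKM). These 2 had the largest differences, but of the 20 genes 7 were higher without overlap (35%, against 24.4% of all genes). The lower ones without overlap numbered 5 (25%, against 36.0% of all genes). The median change of the 20 was -0.01 and turned to 0.10 with median-ratio scaling. Among 16 other writers and erasers on H3K27 and H3K36, 0 passed. NSD3, an H3K36 methyltransferase, had 4.08 and 3.66 against 2.69 and 2.08 RPKM (limma adjusted p = 0.0664), and the H3K27 demethylase KDM6A 9.04 and 9.30 against 6.62 and 6.30 RPKM. The maintenance DNA methyltransferase DNMT1 (19.69 and 18.92 against 17.00 and 15.18 RPKM) and DNMT3B (0.94 and 1.45 against 0.58 and 0.72 RPKM) were lower without overlap and did not pass.

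Transcripts recovered with EZH2 were measured by RNA immunoprecipitation (RIP) in AI cells, 2 libraries with EZH2 antibody and 2 with IgG. No transcript of 13667 passed the test of EZH2 against IgG (0.0%), so there was no called class to describe. By a rule of size, 3483 tested genes had log2 values at least 1 above the IgG mean in both EZH2 libraries. After siEZH2 2 of them rose and 112 fell (3.22%), with a median change of -0.10. Of the 6919 other genes measured in RIP 4 rose and 169 fell (2.44%), with a median of -0.04. EZH2 RNA itself had 19.81 and 15.60 RPKM with the antibody and 3.73 and 0.0 RPKM with IgG. MALAT1 was on the other side, with a log2 difference of -1.77 between antibody and IgG.

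Cell cycle lists held 6 called genes, all lower. In the G2 and mitosis list 3 of 24 fell, against 2.52% of all genes, with a median of -0.25. TOP2A, the topoisomerase that untangles chromosomes, fell from 43.45 and 41.05 RPKM to 23.34 and 20.91 RPKM (log2 change -0.92, SE 0.11, limma adjusted p = 0.0194). CDK1, the kinase that drives entry into mitosis, fell from 109.3 and 124.0 RPKM to 56.60 and 74.01 RPKM. The spindle motor KIF11 fell from 5.03 and 4.91 RPKM to 3.11 and 3.05 RPKM. The list did not move as one, since PLK1 (24.52 and 22.35 against 31.79 and 26.95 RPKM) and CDC20 (45.54 and 47.16 against 53.71 and 56.93 RPKM), both mitotic regulators, were higher without passing.

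In the G1/S and replication list 2 of 24 fell, against 2.52% of all genes, with a median of -0.09 that turned to 0.02 with median-ratio scaling. RRM1, the large subunit of ribonucleotide reductase, fell from 81.43 and 84.54 RPKM to 51.85 and 53.99 RPKM (log2 change -0.64, SE 0.09, limma adjusted p = 0.028). PCNA, the clamp of DNA polymerase, fell from 31.50 and 35.49 RPKM to 19.01 and 24.14 RPKM. The replication licensing factor CDT1 was higher (41.01 and 41.48 against 51.18 and 53.85 RPKM) and did not pass. RB1, the retinoblastoma protein that holds cells in G1, was the 1 of 12 genes for G1 cyclins and inhibitors to fall, from 2.38 and 1.91 RPKM to 0.77 and 1.04 RPKM. PLK1, CDC20 and CDT1 were named after their values were seen.

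Androgen receptor target genes did not pass the test. Of 24 androgen-induced genes 0 were called, 11 being lower without overlap (45.8%, against 36.0% of all genes) and 5 higher (20.8%, against 24.4%). The chaperone FKBP5 (5.49 and 5.67 against 3.74 and 3.47 RPKM, limma adjusted p = 0.0535) and MPHOSPH9 (4.62 and 4.41 against 2.91 and 2.46 RPKM) had the largest differences. KLK3, which encodes prostate-specific antigen, stood at 2322 and 2320 RPKM against 2482 and 2440 RPKM and is given because it marks these cells. Among 12 receptors and cofactors 1 passed, against 2.62% of all genes. The corepressor NCOR1 fell from 18.13 and 17.01 RPKM to 13.44 and 11.35 RPKM (log2 change -0.49, SE 0.11, limma adjusted p = 0.0498). The androgen-repressed enzymes UGT2B15 (0.82 and 1.57 against 0.59 and 0.60 RPKM) and UGT2B17 (2.53 and 2.98 against 1.61 and 1.98 RPKM), which are close copies whose reads may be shared, were lower and did not pass.

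Splicing factors and stress genes stood on opposite sides of the median without calls. Of 42 splicing factors 0 passed, 24 were lower without overlap (57.1%, against 36.0% of all genes) and 7 higher, with a median of -0.20. CLK1, a kinase of splicing factors, had 56.37 and 61.11 against 36.58 and 38.26 RPKM, and MBNL1, a regulator of alternative splicing, 2.33 and 2.60 against 1.07 and 1.60 RPKM. Of 18 genes of the integrated stress response 0 passed, 12 were higher without overlap (66.7%, against 24.4% of all genes) and 1 lower, with a median of 0.17. TRIB3, a pseudokinase induced by ATF4, had 42.74 and 44.69 against 63.48 and 62.14 RPKM (limma adjusted p = 0.0604), and the transcription factor CEBPB 28.71 and 28.49 against 38.69 and 41.86 RPKM. Both medians kept their sign under the scalings tried.

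Mitochondrially encoded genes were higher without overlap in 12 of 15 (24.4% of all genes) and lower in 1 (36.0% of all genes), with a median of 0.34 and 0 calls. The most abundant of them, the large ribosomal RNA MT-RNR2, was the 1 lower (10770 and 11180 against 10020 and 10270 RPKM). Their summed share of the library was 3.94% and 4.07% after mock siRNA and 3.85% and 3.81% after siEZH2, so it was not higher. MT-ND3, a subunit of complex I, had 218.8 and 256.1 against 354.7 and 374.1 RPKM, and MT-ATP6 15.08 and 17.47 against 30.89 and 20.62 RPKM. The abundant chaperone of the endoplasmic reticulum HSP90B1 had 403.5 and 408.3 against 251.8 and 270.7 RPKM and did not pass (limma adjusted p = 0.0717), nor did any of 12 such chaperones. Among 15 noncoding RNAs MALAT1 was the 1 called (2.52% of all genes fell), and 10 were lower without overlap (66.7%, against 36.0% of all genes). No member passed among 27 genes of cholesterol and fatty acid synthesis (median 0.14), 19 of the p53 response (0.02), 16 apoptosis regulators (-0.17), 17 of hypoxia and glycolysis (0.01), 13 of the small RNA machinery (-0.19), 56 ribosomal proteins (-0.01), 12 immediate early and ID genes (-0.05), 6 NF-kB targets (0.16), 4 of antigen presentation (0.13), 5 DNA methylation enzymes (-0.01) or 4 androgen-repressed genes (-0.30).

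Some called genes belong to a few complexes, which were listed after the values had been seen, so their counts are a description only. Of 24 nucleolar proteins that assemble ribosomes 14 fell, where 2.52% of all genes fell, and the median was -0.65. The histone chaperone NPM1 fell from 45.28 and 47.28 RPKM to 25.79 and 30.75 RPKM, and nucleolin, NCL, from 176.9 and 165.9 RPKM to 114.6 and 109.7 RPKM. The helicase DDX21 fell from 37.94 and 34.37 RPKM to 21.87 and 19.79 RPKM, and WDR75, a factor of the small subunit processome, from 7.88 and 9.16 RPKM to 3.99 and 4.26 RPKM. The 10 others ranged from -0.87 to 0.27, and fibrillarin, FBL, stood at 744 and 736 against 756 and 823 RPKM. The median of the 24 genes in AD cells was -0.05.

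Of 12 cohesin and condensin subunits, the rings that hold and compact chromosomes, STAG2, SMC3, SMC2 and NCAPG fell. The share of all genes that fell, 2.52%, stands beside the counts of each complex here. SMC2 fell from 7.17 and 7.95 RPKM to 4.60 and 3.31 RPKM, and STAG2 from 15.98 and 17.32 RPKM to 9.04 and 9.54 RPKM. NDC80 and NUF2, which join spindle fibres to kinetochores, fell from 21.02 and 20.18 RPKM to 13.11 and 9.39 RPKM and from 20.25 and 21.90 RPKM to 9.83 and 11.79 RPKM, while their partner SPC24 overlapped (100.55 and 96.57 against 96.51 and 102.83 RPKM). Of the 8 subunits of the CCT chaperonin, which folds actin and tubulin, CCT2, CCT6A and CCT8 fell by 0.61 to 0.69 on the log2 scale and CCT3 and CCT7 were at -0.03 and 0.06. Of 12 subunits of the translation initiation factor eIF3, 2 fell (EIF3A and EIF3M, log2 changes -0.61 and -0.56) and the median was -0.01. Of the eIF3 genes not called, 3 were lower and 3 higher without overlap. Over all genes tested, 36.0% were lower and 24.4% higher without overlap. Of 15 intraflagellar transport genes 3 fell (TTC21B, IFT81 and IFT57), 5 others were lower and 3 higher without overlap, and the median was -0.27. IFT27 was highest at 0.51 and did not pass. With median-ratio scaling 1 of the nucleolar genes and 0 of the cohesin, condensin, NDC80 and CCT genes passed.

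**Figure D3:**
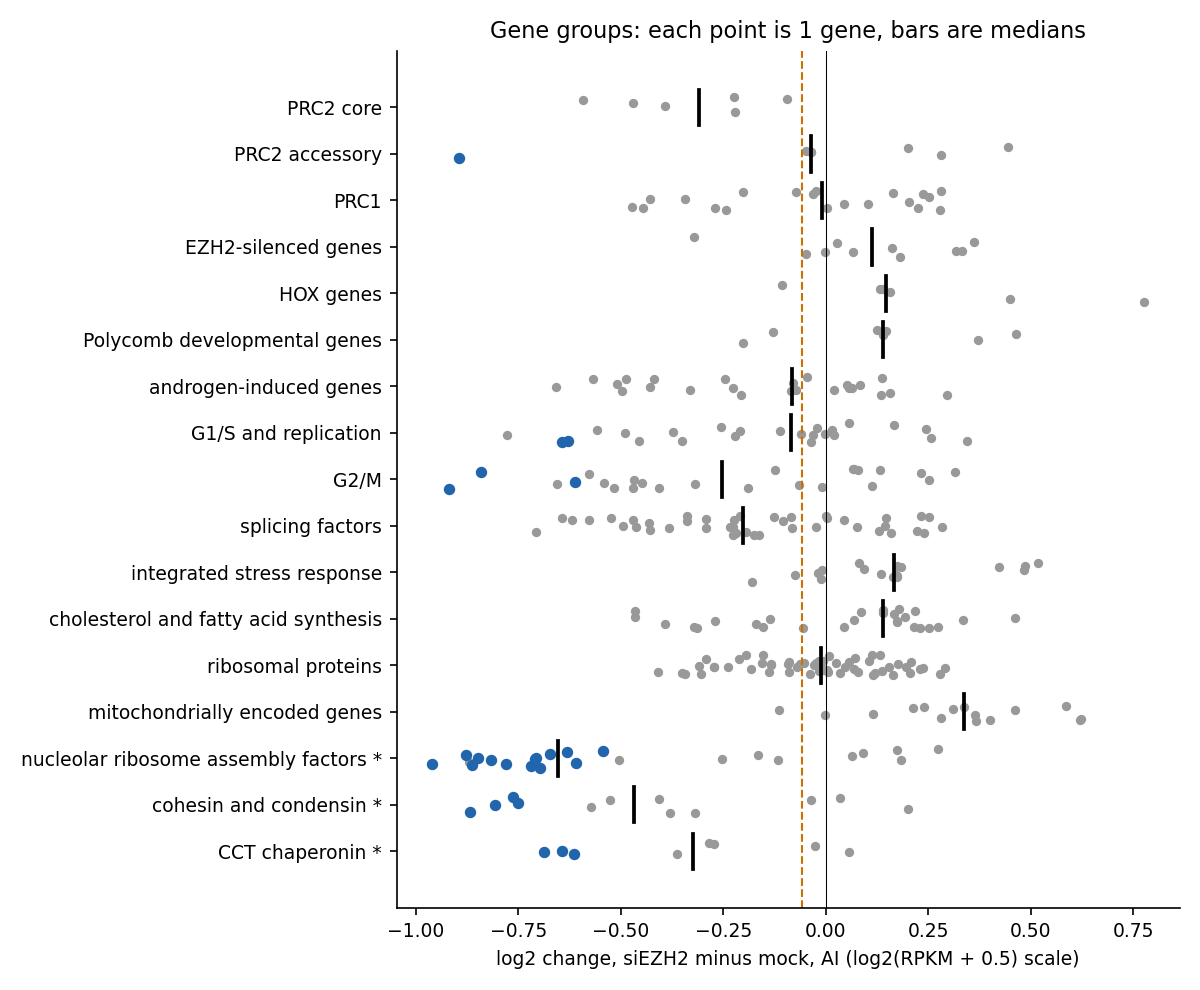
Log2 change after siEZH2 in AI cells for the genes of 17 groups, 1 point per tested gene, blue where the gene was called, with the group median (black bar) and the median of all genes (dashed line, -0.06). The 3 groups with an asterisk were chosen after their values were seen, and the blue points all lie below 0.

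The change varied with the length of the gene. In 4 equal bins of RefSeq gene span, from shortest to longest, the median change was 0.09, 0.00, -0.13 and -0.20, and 21, 50, 100 and 111 genes fell out of 2672 in each. The middle 50% of genes ran from -0.12 to 0.22 in the shortest bin and from -0.44 to 0.01 in the longest. Between the 2 mock libraries the bin medians differed from 0 by at most 0.02, and between the 2 siEZH2 libraries by at most 0.01. The order also held among genes of 5 to 20 RPKM, with medians of 0.08, 0.00, -0.10 and -0.20. Among genes of 20 to 100 RPKM they were 0.11, 0.06, -0.07 and -0.06. In AD cells the same bins had medians of 0.06, 0.01, -0.05 and -0.11. The called falls had a median span of 50420 bases, against 28340 bases for all tested genes. The median change also went with the level, from -0.13 below 2 RPKM to 0.10 at 100 RPKM or more, and with promoter GC content, known for 75.5% of tested genes, from -0.12 in the lowest of 4 bins to 0.01 in the highest. The part of span, level and GC content in the calls was not tested.

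**Figure D4:**
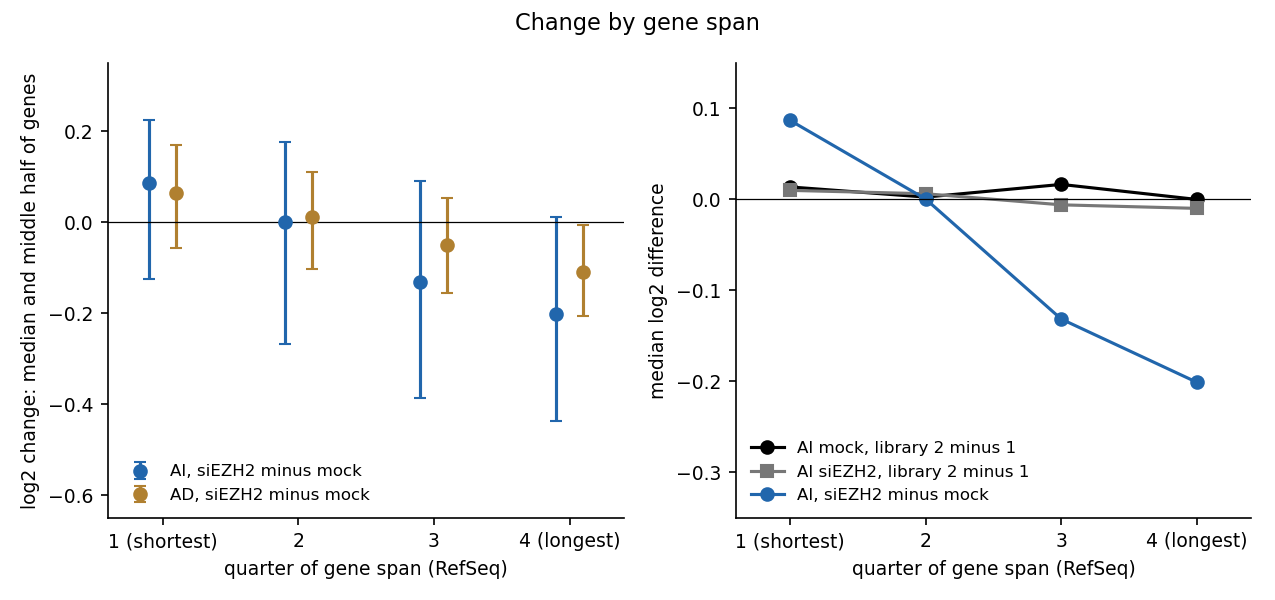
Left, median (point) and middle 50% of genes (bar) of the log2 change after siEZH2 by bin of gene span, in AI cells and AD cells. Right, the median change in AI cells beside the median difference between the 2 libraries of each AI group, which stays within 0.02 of 0 in all bins while the siEZH2 minus mock median goes from 0.09 to -0.20.

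Whether the response to siEZH2 differed between AI and AD cells was tested as the difference of the 2 changes. No gene passed in limma (0.0%, smallest adjusted p 0.238), and 804 genes (7.02%) had an unadjusted p under 0.05. For EZH2 the difference was -0.52 (SE 0.26, unadjusted p = 0.0717, adjusted p = 0.732). In AD cells alone no gene passed for siEZH2 against mock (0.0%), with 356 genes (3.11%) at an unadjusted p under 0.05. The 289 genes that fell in AI cells were chosen for their AI change, and all had a larger fall there than in AD cells. Their median change in AD was -0.14, against -0.02 for all genes, and 245 of them were below 0 in AD. The AD groups did not overlap for 155 of them in the lower direction (53.6%), against 24.3% of all tested genes. TOP2A (AD change -0.14), CDK1 (-0.10) and RRM1 (-0.01) had small changes in AD, and KLHL1 was above 0 there (0.46) and fell in AI (-1.08).

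**Figure D5:**
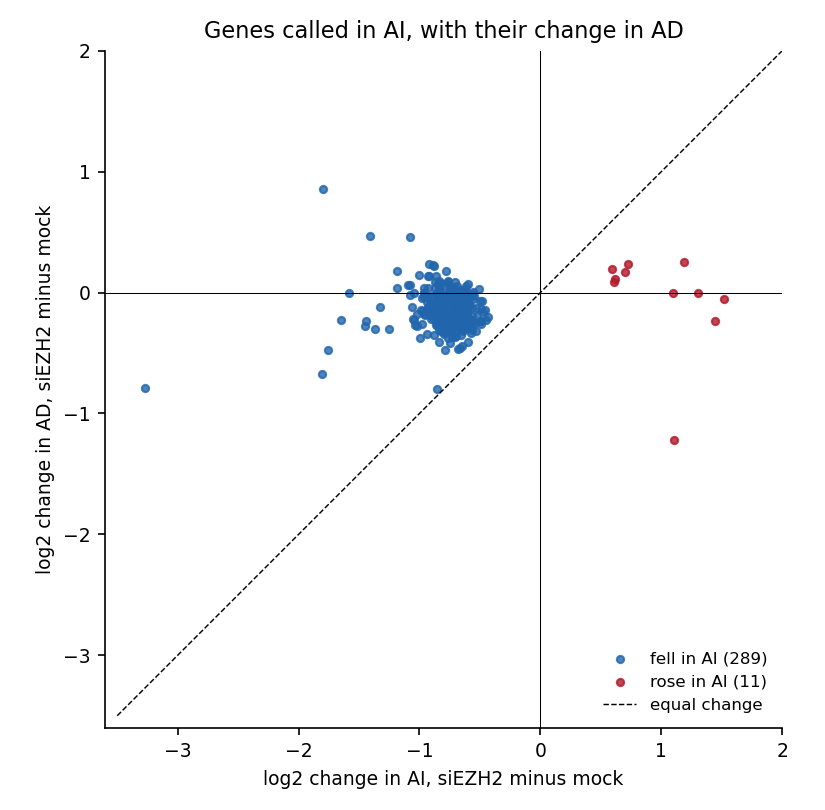
Log2 change after siEZH2 in AD cells against that in AI cells for the 300 genes called in AI (289 falls, 11 rises), with the line of equal change dashed. The genes were chosen on the horizontal axis, and most falls lie between 0 and -0.5 in AD, with 245 below 0.

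The libraries had the expression profile of luminal prostate cells. All 14 luminal markers were at 0.5 RPKM or more in each of the 4 libraries, with summed levels of 3323 and 3329 RPKM after mock siRNA and 3552 and 3511 RPKM after siEZH2. Of 14 luminal genes 0 passed, EPCAM (122.7 and 127.2 against 90.48 and 85.48 RPKM) having the lowest change. The 11 blood or stromal markers summed to 0.64 to 0.90 RPKM, with PTPRC, CD3E, CD68, PECAM1 and LUM at 0 in all 4 libraries. The 7 basal markers summed to 2.86 to 4.59 RPKM, with TP63 and CD44 at 0. The 10 neuroendocrine markers summed to 35.77 to 42.46 RPKM, of which ENO2, also a glycolytic enzyme, gave 35.15 to 41.82 RPKM, and INSM1 and SCG2 were at 0. Mesenchymal markers summed to 73.98 to 86.40 RPKM, and 6 of the 10 were at 0.5 RPKM or more in each library. VIM gave 14.88 to 20.75 RPKM of this, so most of the sum came from other members. MMP2 and ZEB1 were at 0.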

How the data were processed

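RNA-seq of polyadenylated RNA was compared in 2 AI siEZH2 and 2 AI mock libraries, grouped by sample title. The authors deposited RPKM per gene with 2 decimals for RNA-seq and for RIP, and the peak lists they deposited carry a score of at least 50 per peak, the authors' own value. Tools named in the submitters' processing notes are cutadapt, TopHat2, Bowtie2 and edgeR, with GRCh38 as the build. How genes were annotated and counted, and whether strand was used, is not given in the sources used here.

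The RPKM values were not rescaled. limma 3.58.1 in R 4.3.3 (limma-trend) was fitted to log2(RPKM + 0.5) over all 12 RNA-seq libraries with 1 coefficient per group. Genes with 0.5 RPKM or more in at least 2 of the 4 AI transfected libraries were tested, with Benjamini-Hochberg adjustment over them at 0.05. The script was tested on simulated data. RPKM is no count, so count models were not used. Identifiers were matched to a name table (27531 of 28071 found). Gene starts and promoters came from RefSeq (GRCh38.p14). Depth was estimated from the steps between low values of short genes (within 0.02 reads beside rounding, 14 to 30 values a library). It is approximate, since a depth near 2 times as high scored almost as well in 7 of the 8 transfected libraries. Floors cover counting error only, and the interval for EZH2 rests on the spread between libraries.

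Named genes were EZH2, the 12 largest rises and falls (mean of 1 RPKM or more, groups apart), and 5 each at 20 RPKM or more. PRC2 genes and up to 4 called or 2 uncalled genes per list were named as well. So were called genes with an H3K27me3 peak within 1 kb of the start in both samples. The members and lists were chosen with earlier results of these data known. Alternatives were other scalings, pseudocounts, filters, sets of libraries and a replicate block. Some genes that this rule names are not reported here.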

Additional observations from a re-analysis of the deposited data

How the results depend on the processing

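The direction of all 300 calls was the same under every alternative that tested them, but none was called under all. With other filters, the block and the fits of 8 or 4 libraries the change of a gene cannot differ, so its direction there was fixed in advance. Of the 300 calls, 300 were among the 1950 of the fit of the 8 transfected libraries (557 higher, 1393 lower). In the fit of the 4 AI libraries 274 were among the 1204 called (269 higher, 935 lower). Fewer genes passed with quantile normalization (67), median-ratio scaling (21), mitochondrially encoded genes left out of the totals (127) and no filter on low values (162). Leaving out 1 AI library gave 0 to 0 calls, with the lone library assumed to vary like the other groups. The causes were not tested. Other pseudocounts and filters gave 208 to 389 calls.

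No label says what a replicate number shares. Deviations of same-numbered AI libraries correlated at 0.0349 across genes, and at 0.155 for genes of 5 RPKM or more. In untreated cells the mitochondrial share went with the number (AD 18.36% and AI 19.61% in replicate 1, 32.56% and 33.45% in replicate 2). With the replicate block 1860 genes were called (387 higher, 1473 lower). In the block and in the fit of the 8 transfected libraries the EZH2 change is -0.59 by construction, and only its p-value can differ. It passed in limma with the block (adjusted p = 0.035), as in the 8 libraries. Without 1 library EZH2 ranged from -0.77 to -0.42. The block gave 4 calls for the difference between AI and AD and 95 list genes. That difference had 9 calls with no filter and 2 in the 8 libraries.

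List genes called numbered 10 with the settings of the report, 1 with median-ratio scaling, 19 with pseudocount 0.1, 6 with no filter, 114 and 79 in the fits of 8 and 4 libraries, and 0 to 0 without 1 library. The median of H3K27me3 genes minus unmarked genes was -0.0548, -0.0734 with peaks within 5 kb, and -0.0784 to -0.0261 without 1 library. For EZH2 RIP the class of size held 3483 genes where the test gave 0, with a median difference of -0.0559 that ranged from -0.06 to -0.0464 without 1 library. Median-ratio scaling of the class called by the RIP test gave no value, since that class was empty.

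Among the genes chosen by the naming rule, signs turned for 5 uncalled ones, AEBP2, LCOR, JARID2, EZH1 and ACTA2. Other genes near 0 were not followed. With quantile normalization AEBP2, LCOR and JARID2 were at 0.0325, 0.129 and 0.121. With median-ratio scaling EZH1, AEBP2, LCOR and JARID2 were at 0.0123, 0.0572, 0.0698 and 0.0692. Without 1 library the changes ranged from -0.208 to 0.0209 for EZH1, -0.27 to 0.172 for AEBP2, -0.24 to 0.168 for LCOR, -0.135 to 0.0619 for JARID2 and -0.146 to 0.219 for ACTA2. Depth limits genes of a few reads, such as MIR4787.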
